A study of Rattus norvegicus with 6 samples.

Results

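This account covers 10 genes of peptide signalling in rat Schwann cells, the glial cells that wrap and myelinate peripheral axons. They are Vgf, Scg2, Chga and Chgb of the granin group, the peptide precursors Ucn2, Penk, Nts and Vip, the convertase Pcsk1 and the peptide receptor Pth2r. The genes were chosen by symbol from the 17327 symbols in the count files, with earlier results of the same NRG1 and mock comparison known. All values of that comparison for these 10 genes are therefore a description, and no p is given for them. All 10 symbols were present, 8 had at least 1 count in some sample and 5 were abundant enough to enter the fit.

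The cells were primary cultures from the sciatic nerves of adult female Wistar rats, and each of the 3 replicate numbers stands for an independent preparation of cells with 1 mock and 1 NRG1 sample. In all 6 samples confluent cells had been starved for 18 h in medium with 2% serum and 10 μM forskolin, an activator of adenylyl cyclase, which was also present during stimulation. The NRG1 samples then received 10 nM recombinant soluble NRG1β1 for 6 h, and the mock samples received the buffer of the ligand, phosphate-buffered saline with albumin, for the same time. The cells had no axonal contact. Before starvation they had grown with 10% serum, forskolin and an ErbB ligand, given as 63 ng/mL glial growth factor in the sample records and as NRG1β1 in the methods of the study.

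Neuropeptides are made as long precursors that enter dense core granules, where prohormone convertases such as PC1/3, the product of Pcsk1, cut them at pairs of basic residues. Granins are acidic proteins that help such granules to form and are themselves cut into peptides, and VGF was first found as a transcript induced by nerve growth factor. Neurons and endocrine cells are the classical site of this pathway. The released peptides act on G protein-coupled receptors, for example urocortin 2 on the receptor encoded by Crhr2 and the tuberoinfundibular peptide encoded by Pth2 on the receptor encoded by Pth2r. Soluble NRG1 signals through ErbB2 and ErbB3 in Schwann cells, and forskolin raises cAMP, which activates the factor CREB at the cAMP response element (CRE).

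Counts on genes ranged from 6821590 to 15475018 per sample, so that 3 counts, taken as the floor, corresponded to between 0.194 and 0.440 CPM, the count scaled to a total of 1000000 counts on genes in each sample. Replicate 1 stood apart from replicates 2 and 3 in both conditions. The 10 fibroblast markers summed to 69316 CPM in mock and 69989 CPM in NRG1 sample 1, against 15560 to 23875 CPM in the other 4 samples. In those 4 samples the sum lay mostly in Col1a1, at 13491 to 21294 CPM. Dcn, Lum and Thy1 were at 0 there and were counted only in replicate 1. The 7 mural cell markers summed to 4766 and 4763 CPM in replicate 1, led by Acta2. In the others they summed to between 316 and 624 CPM, led by Pdgfrb, with Acta2 at most at 4.54 CPM. The 11 Schwann cell markers, all detected and 1 of them (Cdh19) called down, summed to 6620 and 5448 CPM in replicate 1. In replicates 2 and 3 the Schwann cell sum was 17320 and 17276 CPM in mock and 13876 and 14527 CPM in NRG1 samples. It was thus lower with NRG1 in each of the 3 pairs, and the part of this in the values of the members was not tested. Of 9 macrophage markers 5 were detected, with Ptprc, Cx3cr1, Cd163 and Adgre1 at 0 and a sum of 2.86 to 3.23 CPM in mock and 2.97 to 4.59 CPM in NRG1 samples. Of 7 endothelial markers 3 were detected, with Pecam1, Cdh5, Emcn and Esam at 0 and sums of 9.74 to 15.1 CPM in mock and 6.32 to 8.93 CPM in NRG1 samples. The neuronal marker Rbfox3 was at 0, and the neuronal sum of 1516 to 4830 CPM in mock and 1997 to 5807 CPM in NRG1 samples lay mostly in Nefl, at 3521 ± 1798 CPM (SD, n = 3) in mock samples. Neuroendocrine markers summed to 20.3 to 44.4 CPM in mock and 22.4 to 38.8 CPM in NRG1 samples, with Th and Ddc at 0. Of 4 perineurial markers in the files 3 were detected, with Lypd2 at 0 and Cldn1 at no more than 9 counts in a sample. Their sums, 44.1 to 97.2 CPM in mock and 58.1 to 133.1 CPM in NRG1 samples, lay mostly in Slc2a1, with Ntn4 adding to it in replicate 1. Of 7 mast and T cell markers 3 were detected, with Cpa3, Tpsab1, Ms4a2 and Cd3e at 0. Those sums, 19.9 to 53.3 CPM in mock and 19.7 to 36.1 CPM in NRG1 samples, lay almost wholly in Kit. In these bulk samples, fewer cells of a type and less RNA per cell cannot be told apart.

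Of the 5 fitted genes, Vgf, Ucn2 and Pth2r were higher with NRG1 in each of the 3 pairs and met the call rule. Its thresholds were those of the study, an adjusted p of at most 0.01 and a log2 fold change over 1. The study applied them to a DESeq2 fit, whereas the fit here was by edgeR, so the calls are not those of the study. Penk and Scg2 did not meet the rule, and no member was called down. Across all 9740 genes tested, 1.56% were called up and 1.91% down, and the share of 3 of 5 is read no further because the members were chosen on this contrast. The fitted fold change was 5.55 for Vgf, 2.61 for Pth2r and 2.42 for Ucn2. Their groups of samples did not overlap for Vgf and Ucn2, a pattern that 9.00% of all genes tested showed in the same direction.

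Of the 10 genes, 7 had a promoter sequence in RefSeq (build GRCr8), and the windows of Vgf, Scg2, Ucn2 and Pth2r are shown because these genes were fitted here. Penk, which was also fitted, Chga and Pcsk1 had no window and were not searched. Each run holds the 250 bases before the annotated start, 5′ to 3′ on the strand of the gene. Capitals mark matches to the CRE TGACGTCA, its shorter form TGACG, the AP-1 site TGANTCA or the TATA box TATAAA, searched on both strands.
Vgf, chr12:25277021-25277270, minus strand: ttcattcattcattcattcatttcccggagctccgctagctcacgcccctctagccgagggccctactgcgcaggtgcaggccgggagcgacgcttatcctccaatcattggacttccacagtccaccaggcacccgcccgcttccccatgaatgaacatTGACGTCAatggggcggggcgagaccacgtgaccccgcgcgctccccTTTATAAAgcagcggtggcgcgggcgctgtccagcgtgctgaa
Scg2, chr9:88256867-88257116, minus strand: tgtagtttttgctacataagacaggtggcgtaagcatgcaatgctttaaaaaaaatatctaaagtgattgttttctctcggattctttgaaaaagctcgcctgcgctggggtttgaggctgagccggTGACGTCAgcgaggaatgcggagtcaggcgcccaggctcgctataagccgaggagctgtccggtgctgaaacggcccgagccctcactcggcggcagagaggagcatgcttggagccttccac
Ucn2, chr8:118515861-118516110, plus strand: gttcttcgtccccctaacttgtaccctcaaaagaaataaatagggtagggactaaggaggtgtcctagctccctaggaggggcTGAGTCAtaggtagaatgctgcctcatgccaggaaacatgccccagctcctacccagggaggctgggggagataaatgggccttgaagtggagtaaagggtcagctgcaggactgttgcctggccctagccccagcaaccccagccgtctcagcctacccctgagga
Pth2r, chr9:74199535-74199784, plus strand: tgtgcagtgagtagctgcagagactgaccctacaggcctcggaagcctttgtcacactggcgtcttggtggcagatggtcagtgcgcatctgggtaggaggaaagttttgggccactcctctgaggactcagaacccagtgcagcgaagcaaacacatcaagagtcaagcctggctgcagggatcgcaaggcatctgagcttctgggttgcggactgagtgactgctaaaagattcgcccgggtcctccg

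The full CRE began 90 bases before the start of Vgf and 123 bases before that of Scg2, and it was present in 1.83% of the 33469 RefSeq windows of 300 bases, which also include 50 bases after the start. Vgf carried in addition a TATA box that began 41 bases before the start. On the opposite strand the same letters, overlapping it, began 43 bases before the start. TATAAA was found in 14.2% of all windows and also in that of Vip, 3 times. The window of Ucn2 held no CRE but an AP-1 match 167 bases before its start, a motif of 7.33% of windows, and that of Pth2r held none of the 4 motifs. Vip had the shorter form, which also lies within the full CRE, 97 bases before its start and Nts had it on the opposite strand, with 21.2% of windows holding at least 1, and Nts also had an AP-1 match. Chgb had no match to the 4 motifs. Vgf and Scg2 thus shared the full CRE. Vgf was called up and Scg2 was not, and any part of the CRE in this was not tested. A match is a description of letters in this window and says nothing about binding in these cells.

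Vgf encodes a granin-like secreted precursor of several peptides. In mock samples 1, 2 and 3 its counts were 3, 7 and 24, and they were 32, 63 and 122 in the NRG1 samples of the same numbers. As levels these were 0.390, 1.03 and 1.93 CPM in mock and 4.13, 7.12 and 7.88 CPM in NRG1 samples. The lowest NRG1 sample was thus above the highest mock sample, and mock sample 1 lay at the floor of 3 counts. The ratio of NRG1 to mock in pair 1 was 10.6, with an exact 95% interval from counting error alone of 3.31 to 54.0. It was 6.94 (3.18 to 18.0) in pair 2 and 4.09 (2.63 to 6.63) in pair 3. The fitted log2 fold change was 2.47 (standard error, SE, 0.31), the 11th highest of 9740 genes. Vgf was therefore a gene with few counts and a large ratio, and the size of the ratio in pair 1 rests on 3 mock counts.

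Ucn2 encodes urocortin 2, a peptide of the corticotropin-releasing factor family. It was counted 503, 943 and 2485 times in mock samples 1, 2 and 3, and 1694, 3119 and 5199 times in the matching NRG1 samples. The levels were 65.4, 138.2 and 199.5 CPM in mock and 218.4, 352.6 and 336.0 CPM in NRG1 samples. The groups did not overlap, although NRG1 sample 1 was only slightly above mock sample 3. The ratios were 3.34 (3.02 to 3.70), 2.55 (2.37 to 2.75) and 1.68 (1.60 to 1.77) in pairs 1, 2 and 3, with intervals from counting error alone, which do not cover the spread between preparations. The log2 fold change was 1.27 (SE 0.16). In RefSeq the symbol Ucn2 is also listed as an older name of Uts2, which encodes urotensin 2. The files hold both symbols, and Uts2, Ucn and Ucn3 were at 0 in every sample.

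**Figure D1:**
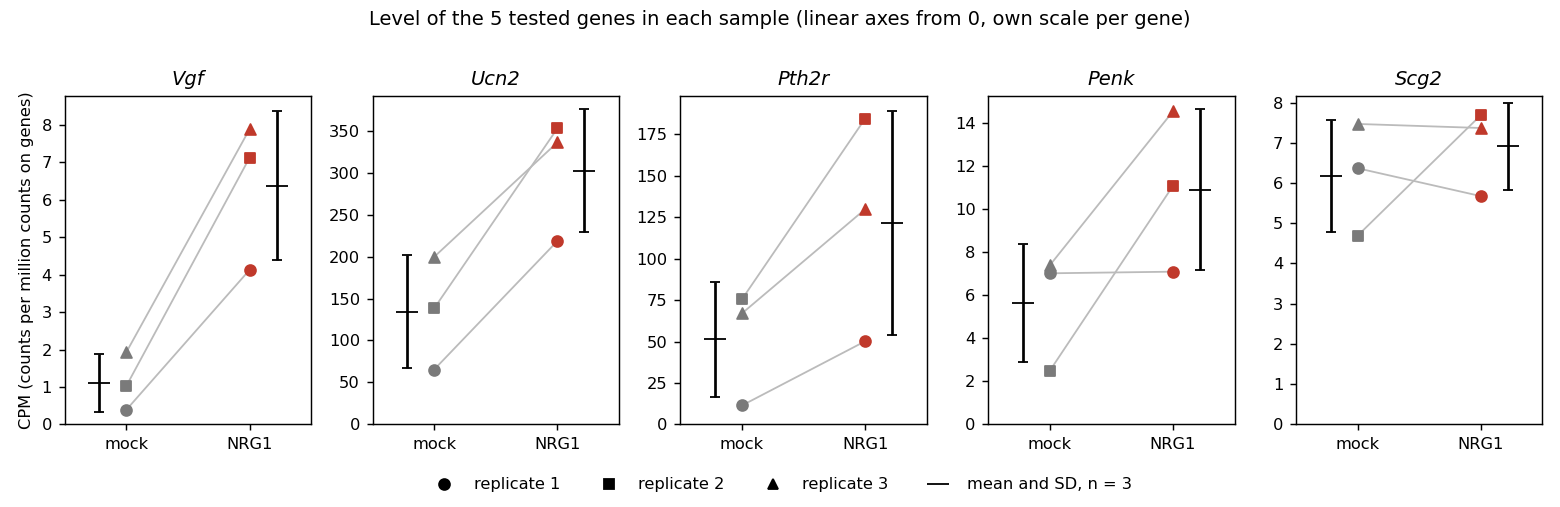
Level of Vgf, Ucn2, Pth2r, Penk and Scg2 in CPM (linear axes from 0, 1 scale per gene) in the 3 mock and 3 NRG1 samples, with lines joining samples of 1 replicate number and bars for mean and SD (n = 3). Vgf runs from 0.390 to 1.93 CPM in mock and from 4.13 to 7.88 CPM in NRG1 samples, and Scg2 changes little except in pair 2.

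In the rat genome Ucn2 lies between Col7a1, the gene of the collagen that forms anchoring fibrils, and Pfkfb4, a regulator of glycolysis. Col7a1 was counted 4755, 4855 and 9384 times in mock and 7054, 6539 and 19513 times in NRG1 samples 1, 2 and 3. Its log2 fold change was 0.46 (SE 0.15, adjusted p = 0.039 by edgeR), and it was not called. Within pairs the log2 ratio of Col7a1 was 0.57, 0.03 and 0.77. Per 100 counts of Col7a1, Ucn2 had 10.6, 19.4 and 26.5 counts in mock and 24, 47.7 and 26.6 counts in the matching NRG1 samples. The ratio of Ucn2 to its neighbour was therefore higher with NRG1 in pairs 1 and 2 and nearly equal in pair 3. Pfkfb4, on the other side, averaged 13.9 ± 3.66 CPM over mock and 16.1 ± 0.87 CPM over NRG1 samples (SD, n = 3 each), with a log2 fold change of 0.24 (SE 0.18) and no call. Whether reads running on from Col7a1 were counted in Ucn2 was not tested, since the counts carry no position within a gene.

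**Figure D2:**
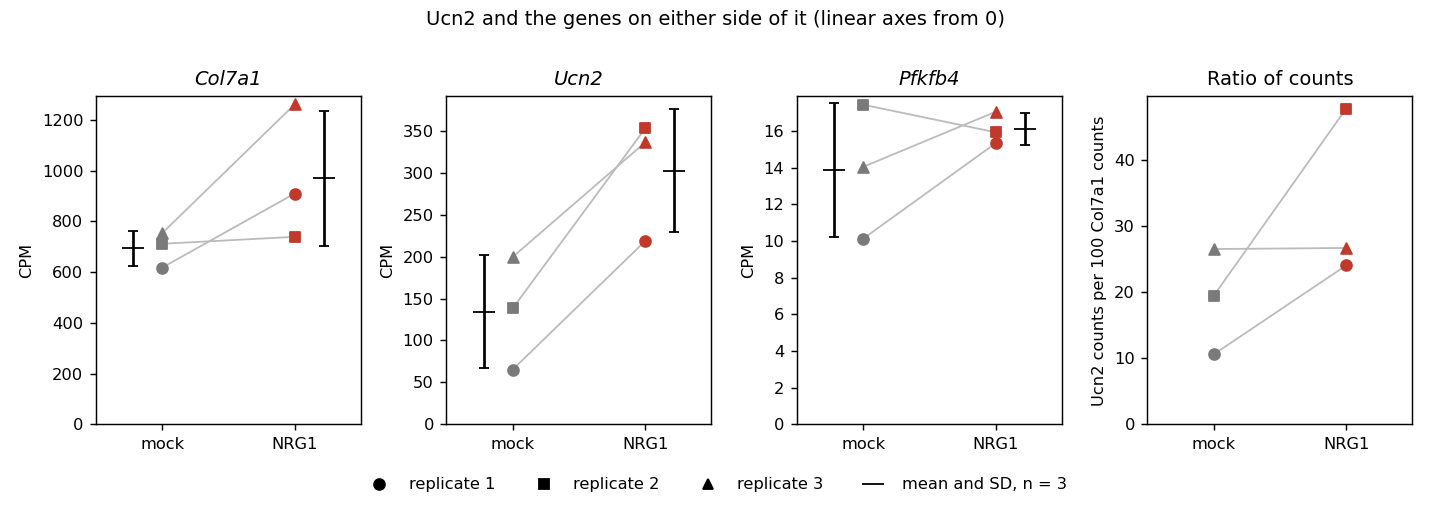
Levels of Col7a1, Ucn2 and Pfkfb4 in CPM and, on the right, Ucn2 counts per 100 Col7a1 counts, for the 3 mock and 3 NRG1 samples (linear axes from 0, lines join replicate numbers, bars give mean and SD, n = 3). In pair 3 the ratio is 26.5 in mock and 26.6 in NRG1, while in pairs 1 and 2 it is higher with NRG1.

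Pth2r encodes a receptor of the class B family that binds the peptide made from Pth2. Mock samples 1, 2 and 3 held 88, 515 and 834 counts, against 389, 1632 and 2009 in the matching NRG1 samples. The levels were 11.4, 75.5 and 67.0 CPM in mock and 50.2, 184.5 and 129.8 CPM in NRG1 samples. The groups overlapped, because NRG1 sample 1 was below mock samples 2 and 3. Replicate 1, which carried the high sums of fibroblast and mural cell markers and the low sum of Schwann cell markers given above, had the lowest Pth2r level of each condition. The part of cell composition in this was not tested. Within pairs the NRG1 sample was higher each time, by a ratio of 4.39 (3.47 to 5.59), 2.44 (2.21 to 2.70) and 1.94 (1.79 to 2.10), with intervals from counting error. The fitted log2 fold change was 1.39 (SE 0.17). The replicate number accounted for 62.3% and the condition for 33.9% of the sum of squares of log2 CPM of Pth2r. For Vgf the condition accounted for 81.7% and the number for 16.2%, and for Ucn2 the shares were 62.5% and 31.5%. The ligand gene Pth2 had 1 count in mock sample 1 and 0 in the other 5 samples.

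Penk encodes proenkephalin, the precursor of the opioid enkephalins. It had 54, 17 and 92 counts in mock and 55, 98 and 225 counts in NRG1 samples 1, 2 and 3, or 7.02, 2.49 and 7.39 CPM and 7.09, 11.1 and 14.5 CPM. The groups overlapped, since NRG1 sample 1 was below mock sample 3. The ratio was 1.01 (0.68 to 1.5) in pair 1, 4.45 (2.64 to 7.94) in pair 2 and 1.97 (1.54 to 2.54) in pair 3. The log2 fold change of 0.97 (SE 0.28) met neither threshold of the call rule. When replicate 1 was left out, it was 1.41 (SE 0.28) and Penk was called, and without replicate 2 it was 0.62 (SE 0.25) and Penk was not called. DESeq2 with the replicate block gave 1.01 (SE 0.36) and no call.

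Scg2 encodes secretogranin II, the precursor of secretoneurin. It was counted 49, 32 and 93 times in mock and 44, 68 and 114 times in NRG1 samples 1, 2 and 3. The levels lay between 4.69 and 7.47 CPM in mock and between 5.67 and 7.69 CPM in NRG1 samples, and the groups overlapped. The log2 fold change was 0.16 (SE 0.23), and within pairs the log2 ratio was -0.15, 0.67 and 0.01. Without replicate 2 the fitted value was -0.057. Penk and Scg2 both had their highest ratio in pair 2. In this pair the fibroblast marker sum was 23875 CPM in the mock and 15936 CPM in the NRG1 sample, whereas it was 69316 and 69989 CPM in pair 1 and 15599 and 15560 CPM in pair 3. The difference in pair 2 lay mostly in Col1a1, at 21294 CPM in the mock and 13491 CPM in the NRG1 sample. Postn was at 1746 CPM in the mock and higher, at 2161 CPM, in the NRG1 sample of this pair. Dcn, Lum and Thy1 were at 0 in both. The part of these differences in the ratios of Penk and Scg2 was not tested.

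The 5 other members were at or near 0. Chga, the gene of chromogranin A, and Pcsk1 had no count in any of the 6 samples, which allows a level of up to 0.0508 CPM over the 59049038 counts of all libraries, counting error only. Chgb, the gene of chromogranin B, had 1, 1 and 2 counts in mock samples 2 and 3 and NRG1 sample 3 and 0 elsewhere. Nts, the precursor of neurotensin, had 1 count, in NRG1 sample 3. Vip, the precursor of vasoactive intestinal peptide, had 1 count in mock sample 1 and 3 counts in NRG1 sample 1 and none in replicates 2 and 3. A change of these genes with NRG1 was not detectable at this depth, and no fold change is given. Of the granin group, Vgf and Scg2 were thus counted in all samples, while the convertase that commonly cuts such precursors in endocrine cells was not detected.

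Vgf, Ucn2 and Pth2r shared further features across the pairs. All 3 had their highest ratio in pair 1 and their lowest in pair 3. This order of the pairs was found in 12.7% of 9719 tested genes with a count in every sample and in 32.0% of the 147 called up among them. For all 3 the mock sample with the lowest level, sample 1, was in the pair with the highest ratio. This follows in part from the ratio itself, since the mock level is its denominator. Mock sample 1 was the lowest mock sample in 45.3% of the same 9719 genes and in 70.1% of those called up. As a ratio of the highest to the lowest level, all 5 fitted members had a narrower range among NRG1 than among mock samples, as had 49.9% of these genes and 68.0% of those called up. The highest mock level was 4.94 times the lowest for Vgf and 3.05 times for Ucn2, against 1.91 and 1.61 times among NRG1 samples, and the value of Vgf in mock sample 1 is imprecise. In CPM the SD was larger among NRG1 samples for Vgf, Ucn2, Pth2r and Penk, at 1.99 against 0.772 CPM for Vgf and 67.6 against 34.8 CPM for Pth2r. Over the 6 samples log2 CPM of Vgf and Ucn2 had a Pearson r of 0.97, Ucn2 and Pth2r of 0.92 and Scg2 and Penk of 0.89. These values describe samples that share 2 conditions and 3 preparations, and the first of them join genes chosen for the same direction.

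The genes whose log2 CPM followed Vgf most closely over the 6 samples were Il11 (r = 0.999), Celf4 (0.996), Atg7 (0.994), Ruvbl2 (0.994) and Noc2l (0.994). Il11, the gene of a cytokine of the interleukin 6 family, went from 11.8 CPM on average in mock to 49.0 CPM in NRG1 samples, and Celf4, the gene of an RNA-binding protein, from 62.9 to 272.8 CPM. Both were called up, with log2 fold changes of 2.10 (SE 0.16) and 2.21 (SE 0.17). Closest to Ucn2 were Msra (0.995), Mrpl43 (0.994), Prkcb (0.994), Tomm40 (0.993) and LOC100365773 (0.993). Prkcb, the gene of protein kinase C beta, was called up with a log2 fold change of 1.87 (SE 0.23), as was LOC100365773 with 2.68 (SE 0.40), whereas Msra, Mrpl43 and Tomm40 were not called. Closest to Pth2r were Dcakd (0.998), Tubb2b (0.996), Psmd9 (0.996), Tubb2a (0.994) and Elovl4 (0.993), none of which was called. Tubb2b, the gene of a beta-tubulin, was at 182.5 CPM on average in mock and 281.4 CPM in NRG1 samples. A smaller prior count of 0.5 kept 3, 4 and 5 of the 5 genes for Vgf, Ucn2 and Pth2r. Genes of very different fold change thus shared a profile, since r does not measure the size of a change.

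The members were then placed beside 184 other genes of the same pathway, set down in 7 lists. Of these, 178 were in the files, 51 had no count in any sample and 65 were tested. Across all 9740 genes tested, 1.56% were called up and 1.91% down. By the same call rule 1 of the 65 was called up, Thop1, and 4 were called down, Pcsk5, Ednrb, Lgr5 and Unc13b. Each of these 5 calls was lost when 1 replicate or another was left out, as stated with each gene. The median log2 fold change of the 65 genes was -0.22, against -0.03 for all genes tested. The single lists below also hold the members, so their counts and medians include them.

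Of 67 peptide precursors in the files, 33 were at 0 in every sample and 7 could be tested. Ucn2 was the 1 called, and the median log2 fold change of the 7 was 0.45. This median includes the members Ucn2 and Penk, which were chosen on this contrast. The other tested precursors, named after their values were seen, split in direction. Their log2 fold changes were 0.94 for Calca, 0.45 for Pthlh, -0.60 for Npff, -0.85 for Gnrh1 and -1.35 for Apln. Among the other precursors Adm was counted most, the gene of adrenomedullin, a vasodilator peptide. It had 499 counts in mock and 431 in NRG1 sample 1 and at most 1 count in every other sample, so that its level followed the replicate and not the condition. Npw, the precursor gene of neuropeptide W, was picked after its values were seen. Its counts in pairs 1, 2 and 3 were 1, 0 and 11 without and 2, 30 and 47 with NRG1, too low to be tested. With no filter on low counts its log2 fold change was 2.42 and without replicate 1 it was 2.56, and in both it was called up. Apln, the gene of apelin, was picked in the same way and went in the opposite direction. It was tested at a log2 fold change of -1.35 (adjusted p = 0.015 by edgeR) and not called, and with no filter on low counts it was called down at -1.38. Of the 9 granins and related granule proteins 5 were tested, with a median of -0.22. Vgf was called up and no member of this list was called down. Nucb1, a calcium-binding protein of the Golgi, and Nucb2, the precursor of nesfatin, were counted most. Their log2 fold changes were -0.27 (SE 0.12, adjusted p = 0.13 by edgeR) and -0.47 (SE 0.15, adjusted p = 0.033).

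Of the 13 processing and amidating enzymes in the files, 11 were tested and Pcsk5 was called down. This gene of the convertase PC5/6 averaged 28.4 ± 13.7 CPM over mock and 13.4 ± 4.91 CPM over NRG1 samples (SD, n = 3 each), a log2 change of -1.05 (SE 0.16, adjusted p = 0.00037 by edgeR). It was lower in each of the 3 pairs, with log2 ratios of -0.68, -1.19 and -1.16. Its log2 change was -0.97 without replicate 2 and -0.96 without replicate 3, just short of the fold change threshold. Cpe, the gene of the carboxypeptidase that trims basic residues from cut peptides, was at 996.0 ± 428.4 CPM (SD, n = 3) in mock samples. Its log2 fold change was -0.26 (SE 0.13). The ubiquitous convertase Furin, at 256.0 ± 28.7 CPM (SD, n = 3) in mock samples, had a log2 fold change of 0.28 (SE 0.12), and neither was called. Ctsl, the gene of cathepsin L, had 11011 counts in mock sample 1 against 754 and 1436 in mock samples 2 and 3, and a log2 fold change of -0.41 (SE 0.12, adjusted p = 0.028 by edgeR). Pcsk2, the second convertase of neuroendocrine granules, named after its values were seen, was counted at 0.91, 7.62 and 5.86 CPM in mock and 0.39, 5.88 and 4.59 CPM in NRG1 samples 1, 2 and 3. Unlike Pcsk1 it was therefore detected, mainly in replicates 2 and 3.

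**Figure D3:**
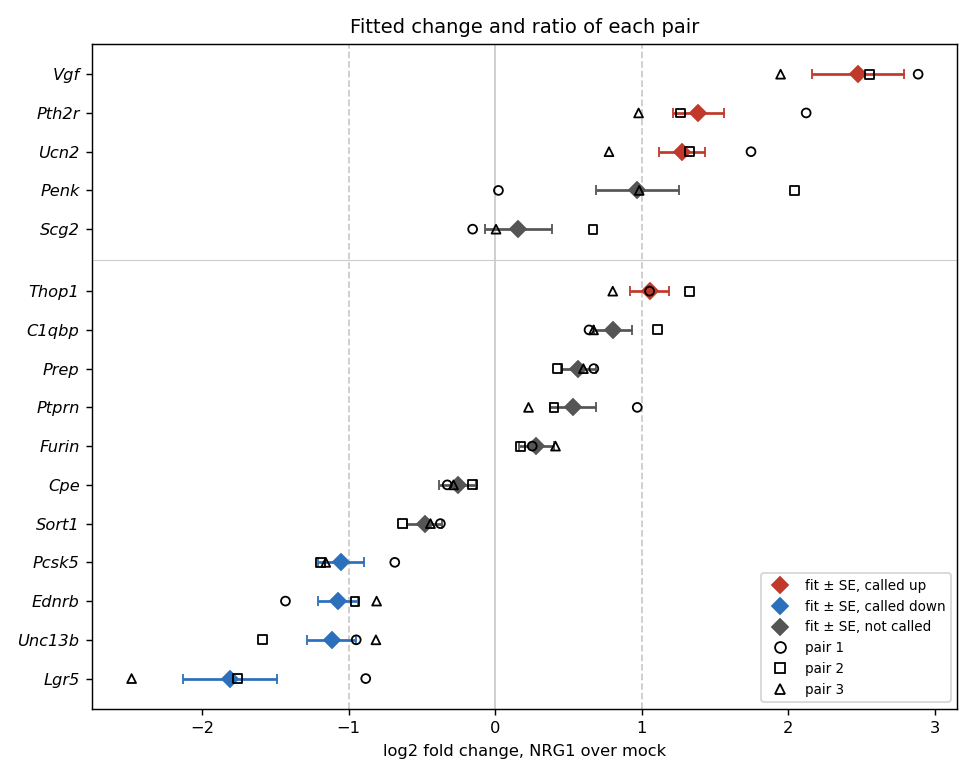
Log2 fold change of NRG1 over mock for the 5 fitted members (above the line) and for 11 other genes of the pathway lists (below), with diamonds for the fit ± standard error, open symbols for the ratio within each of the 3 pairs and dashed lines at the threshold of the call rule. Vgf, Pth2r and Ucn2 lie to the right of the threshold, the ratios of Penk spread from 0.02 to 2.04 and Pcsk5, Ednrb, Unc13b and Lgr5 lie to the left.

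Of 13 peptidases that degrade peptides outside or inside cells, 10 were tested and Thop1 was called up. Thop1, the gene of thimet oligopeptidase, which cleaves short peptides such as neurotensin, averaged 39.3 ± 13.8 CPM over mock and 80.5 ± 19.5 CPM over NRG1 samples (SD, n = 3 each). Its log2 fold change was 1.05 (SE 0.13, adjusted p = 9.3e-05 by edgeR), and it was higher in each of the 3 pairs. Without replicate 2 it was 0.92 and not called. Prep, the gene of prolyl oligopeptidase, passed the adjusted p but not the fold change, with 0.57 (SE 0.12, adjusted p = 0.0034 by edgeR). Mme, another gene of this list, named after its values were seen, went in the opposite direction. Its log2 fold change was -0.97 (SE 0.13, adjusted p = 0.00011 by edgeR), just short of the fold change threshold. Mme was lower in each of the 3 pairs, and without replicate 2 it was called down at -1.02. Ide, the insulin-degrading enzyme, and Ece1, the endothelin-converting enzyme, had log2 fold changes of 0.24 (SE 0.13) and 0.00 (SE 0.12) and were not called.

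Of 17 genes for receptors and binding proteins of the member peptides, 4 were at 0 in every sample: Crhr1 and Crhr2, the receptors of the corticotropin-releasing factor family, Oprm1, the mu opioid receptor, and C3ar1, a receptor of a VGF-derived peptide. Only 3 were tested, and Pth2r was the one called. C1qbp, a mostly mitochondrial protein, had a log2 fold change of 0.81 (SE 0.13, adjusted p = 0.00056 by edgeR) and stayed under the fold change threshold. Sort1, the gene of the sorting receptor sortilin, which also binds neurotensin, had -0.48 (SE 0.12, adjusted p = 0.011). Of 33 other peptide receptors and their accessory proteins 9 were tested, with a median log2 fold change of -0.80 and 2 called down. Ednrb, the endothelin B receptor gene, averaged 134.5 ± 71.4 CPM over mock and 60.3 ± 18.5 CPM over NRG1 samples (SD, n = 3 each), a log2 change of -1.07 (SE 0.14, adjusted p = 9.3e-05 by edgeR). Without replicate 1, the sample pair with the highest levels, it was -0.88 and not called. Lgr5, whose ligands are R-spondins rather than processed neuropeptides, fell by 1.81 on the log2 scale (SE 0.32, adjusted p = 0.0012 by edgeR). Without replicate 3 the value of Lgr5 was -1.26 with an adjusted p of 0.029 by edgeR, over the threshold. Npr2, the receptor gene of C-type natriuretic peptide, had -0.81 (SE 0.15, adjusted p = 0.0021) and Ramp3, a partner of the calcitonin receptor family, -0.17 (SE 0.13), and neither was called.

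Of 36 genes of dense core vesicle formation and release, 25 were tested, 1 was called and the median log2 fold change was -0.15. Unc13b, the gene of the vesicle priming factor Munc13-2, was called down, at 33.4 ± 10.5 CPM over mock and 15.2 ± 5.11 CPM over NRG1 samples (SD, n = 3 each), a log2 change of -1.11 (SE 0.17, adjusted p = 0.00037 by edgeR). Without replicate 2 the change of Unc13b was -0.87 and not called. Ptprn, the gene of the granule membrane protein IA-2, was counted most of this list, at 546.0, 1515.2 and 1992.2 CPM in mock and 1063.5, 2032.7 and 2291.5 CPM in NRG1 samples 1, 2 and 3. Its log2 fold change was 0.53 (SE 0.15, adjusted p = 0.023 by edgeR), higher in each of the 3 pairs but not called. Vamp2, a vesicle SNARE, had -0.43 (SE 0.12, adjusted p = 0.015) and Rab2a, a small GTPase, 0.10 (SE 0.12).

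**Figure D4:**
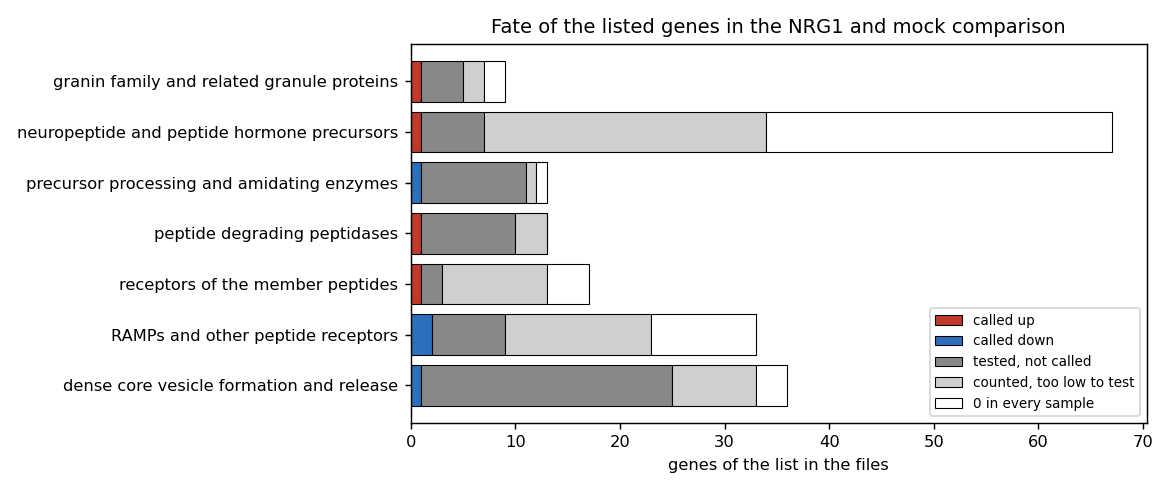
Number of genes in each of the 7 pathway lists that were called up, called down, tested without a call, counted but too low to test, or at 0 in every sample (horizontal axis, genes of the list in the files). Of 67 peptide precursors 33 are at 0 and 7 are tested, whereas 25 of 36 vesicle genes and 11 of 13 processing enzymes are tested.

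The calls rested on the pairing. Without the replicate number as a block edgeR called 0 of 9740 genes, so none of the 3 members, with 1334 genes at an unadjusted p under 0.05, while the log2 fold changes of Vgf, Ucn2 and Pth2r were 2.47, 1.18 and 1.25. DESeq2 without the block called 59 genes up and 42 down, with Vgf among the former and no other member.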

How the data were processed

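Poly(A) RNA of 3 mock and 3 NRG1 samples was read on an Illumina NextSeq. The authors aligned the reads to rat rn5 with TopHat2 2.0.10 and deposited raw htseq counts per RefSeq gene symbol, the unit used here. The htseq version, overlap mode and strand setting are not given in the sources used here. Genes held 47.0% to 49.9% of alignments, and the summary lines with the rest were left out. No transcript lengths were used, so an order of genes by count or CPM serves only to choose which to name and is not an order of RNA levels.

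Condition and number came from the sample titles. Genes passing filterByExpr (minimum count 10) were fitted with edgeR 4.0.16 (R 4.3.3) by the quasi-likelihood test after TMM normalization, with the number as a block as in the study's paired design, and Benjamini-Hochberg adjustment over 9740 genes. The call rule asked for an adjusted p no higher than 0.01 together with a log2 fold change beyond 1 in either direction. Deviations from group means correlated across genes with r of 0.91, 0.67 and 0.81 for equal numbers, and between -0.80 and 0.51 for unequal ones. CPM used the counts on genes; pair ratios on the log2 scale used TMM and a prior count of 2. Standard errors are the log2 fold change over the root of F.

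The members and lists were chosen with earlier results of these data known. The text names the members, list genes that were called, the 3 with the highest mean CPM in each list, and the 5 genes closest in profile to Vgf, Ucn2 and Pth2r by Pearson r; others are named as chosen after their values were seen or as markers or neighbours. Alternatives were no block, DESeq2 1.42.0, RLE, no low-count filter, an adjusted p of 0.05, each replicate left out and a prior count of 0.5. The scripts were tested on simulated counts. Promoters are from RefSeq GRCr8, and coordinates in the files' build were not used.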

Additional observations from a re-analysis of the deposited data

How the results depend on the processing

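Vgf, Ucn2 and Pth2r were called up under DESeq2 with the replicate block, RLE, no low-count filter, an adjusted p of at most 0.05 and without each replicate in turn. Without the replicate block 0 members, 0 genes in all and 0 other list genes were called up or down by edgeR. DESeq2 fitted likewise (no replicate block, an alternative chosen after seeing the data) called 1 member (Vgf), 59 genes up, 42 genes down and 0 other list genes. Leaving out each replicate gave 3 to 4 members, 133 to 202 genes up and 122 to 299 genes down. The added member was Penk, without replicate 1. That fit also called 299 genes down, and the one without replicate 2 called 122, against 186 with all samples. Of the other list genes 0 to 2 were then called up and 2 to 5 down. With all samples these counts were 1 and 4, and 2 were called up with no low-count filter and with an adjusted p of at most 0.05. Scg2 had log2 fold changes of -0.057 without replicate 2 and up to 0.29 without the others, and the cause was not tested. No other member changed sign under any alternative. Depth limits Vgf, at 3 to 24 mock counts, and left Chga, Pcsk1, Nts, Vip and Chgb untested.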

Other observations

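Several peptide and receptor genes followed the preparation and not NRG1. They were picked after their values were seen and carry no test. Besides Adm, Edn1, the endothelin 1 precursor gene, had 85 counts in mock and 66 counts in NRG1 sample 1 and at most 1 count in each sample of replicates 2 and 3. Pth1r, the parathyroid hormone receptor gene, was at 18.3 and 15.7 CPM in replicate 1 and at 0 in the other 4 samples. Vipr2, a receptor gene for the peptide made from Vip, had 92 and 80 counts in replicate 1 and between 1 and 7 counts elsewhere. The few Vip counts were in replicate 1 too. Acta2, a mural cell marker, was at 1762.7 and 1784.0 CPM in replicate 1 and at most at 4.54 CPM in the others. The receptors Pth2r and Pth1r, which both belong to the parathyroid hormone receptor family, thus had opposite profiles across the preparations, with Pth2r lowest in the 1 preparation in which Pth1r was counted.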
